A study of Mus musculus with 9 samples.

Results

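Transcripts of 46 genes that build or remodel the extracellular matrix were followed in RNA-seq libraries of mouse duodenum. The genes were taken by symbol from a fixed list of collagens, laminins, matrix glycoproteins, proteoglycans, maturation enzymes, proteases and inhibitors. All 46 were found among the 48709 genes of the count table. All 46 also had more than 100 reads over the series, the minimum the study used, and were therefore among the 15002 genes tested. The study asked how ZK, a vitamin D analog given together with 1,25D3 (calcitriol, the hormonal form of vitamin D and the ligand of the vitamin D receptor), changes the intestinal response to 1,25D3. The mice were male C57Bl6 of 10 weeks of age, treated per os and studied at 6 h. There were 3 groups with 3 libraries each, 9 in all: one labelled vehicle, one labelled 1,25D3, and one labelled with both 1,25D3 and ZK, called co-treatment here. No group carried a transgene or a deletion, and the labels give no dose. Within each treatment label the libraries are numbered 1, 2 and 3, and the text names a library by its label and number.

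The extracellular matrix of the gut wall has a basement membrane under the epithelium and around vessels, muscle and nerves, and a fibrous interstitial matrix in the lamina propria and submucosa. Laminins and type IV collagen form the sheets of the basement membrane, which nidogens and perlecan link together. Fibrillar collagens, made largely by fibroblasts, give tensile strength, and elastic fibres, small proteoglycans and glycoproteins organise the fibrils. Lysyl oxidases cross-link collagen and elastin, matrix metalloproteinases cleave matrix, and tissue inhibitors of metalloproteinases (Timps) restrain them.

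One fact about the libraries comes before every result. *Cyp24a1*, the vitamin D catabolic enzyme whose transcription 1,25D3 strongly induces, did not follow the treatment labels. Its level was 6425 to 7633 CPM in the 3 libraries numbered 2, whichever treatment they were labelled with, and 2.47 to 9.13 CPM in the other 6 libraries. Levels are CPM (read counts scaled to a common library size, here with TMM factors from edgeR), a scale that relates each library to its total and its composition. Library totals ran from 22561400 to 41207455 counts. Labels or columns may have been exchanged in the deposit, and what a treatment label or a number stands for cannot be told from the files. No library was moved to another group: treatment comparisons are those of the labels, and libraries were also compared by number, each number holding 1 library of each label. The library labelled 1,25D3 3 stood apart from the other libraries numbered 3 and near those numbered 1. For 44 of the 46 matrix genes it lay nearer, on the log2(CPM + 0.5) scale, to the mean of the libraries numbered 1 than to the mean of vehicle 3 and co-treatment 3; over all genes tested this held for 80.4%. Counts of genes called between numbers are given with and without it, and values of single genes without it only where stated. It also enters the spread shared by all comparisons in the fits over 9 libraries. The SE of the *Col1a1* log2 fold change between numbers 2 and 1 was 0.16 with it and 0.060 without it. The library was singled out by its expression in these same data, so p-values of fits without it depend on that choice.

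Matrix genes were called between numbers, and none was called between treatment labels, where the differences were bounded only loosely. In the libraries numbered 2 most collagens, laminins and elastic fibre genes were higher than in those numbered 1. Among the genes called higher, collagens were 1.56-fold (*Col18a1*) to 2.58-fold (*Col16a1*) higher, laminins 1.54-fold (*Lama5*) to 3.46-fold (*Lama2*), and elastic fibre genes 1.68-fold (*Fbn1*) to 3.97-fold (*Fbln2*). Of the 46, 26 were called higher and 1 was called lower, where a call is an adjusted p under 0.05 with an absolute log2 fold change above 0.58 (edgeR quasi-likelihood test, Benjamini-Hochberg over all genes tested). Over all genes tested 20.4% were called, 12.2% higher and 8.25% lower. The median log2 fold change of the 46 genes was 0.66, against 0.03 over all genes, and 42 of the 46 values were above 0. In 38 genes all 3 libraries numbered 2 lay above all 3 numbered 1, and in 4 they lay below; over all genes these shares were 31.8% and 30%. Without the library 1,25D3 3 the counts were again 26 and 1, with 14.1% and 8.98% of all genes called in these directions (23.1% in all). Leaving out 1 library at a time, 19 of the 27 calls were made in each of the 9 fits, and 8 were lost in at least 1 of them: *Col5a1*, *Col12a1*, *Col14a1*, *Lama5*, *Lamb3*, *Fbn1*, *Tnc* and *Dcn*, whose values are given with each gene. In the fit without 1,25D3 3 these 8 were all called, with adjusted p from 8.4e-07 (*Dcn*) to 9.4e-05 (*Lamb3*) (edgeR). Vehicle 3 and co-treatment 3 were also high for most of these genes, whereas 1,25D3 3 was low. By treatment label no gene of the list was called in any of the 3 comparisons.

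The fibrillar collagens were the clearest case. *Col1a1* and *Col1a2* encode the 2 chains of type I collagen, the main fibril collagen of connective tissue. *Col1a1* (chromosome 11, 94936224 to 94953042, GRCm38, plus strand) had 19.0, 18.6 and 16.7 CPM in vehicle 1, 1,25D3 1 and co-treatment 1. It had 29.5, 29.0 and 30.8 CPM in the libraries numbered 2, and 30.5, 18.3 and 29.7 CPM in those numbered 3, in the same order of labels. All libraries numbered 2 were above all those numbered 1, and among those numbered 3 only the library labelled 1,25D3 was at the level of number 1. The log2 fold change of number 2 against number 1 was 0.72 (SE 0.16, adjusted p = 0.0076, edgeR). *Col1a2* had 21.8 to 24.6 CPM in number 1, 38.0 to 41.6 in number 2, and 45.2, 25.3 and 41.8 CPM in number 3, with a log2 fold change of 0.78 (SE 0.18, adjusted p = 0.0076, edgeR).

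*Col3a1* encodes type III collagen, which forms fine fibrils beside type I collagen in distensible organs. It was the highest of the fibrillar collagens, with 37.5, 36.8 and 36.2 CPM in number 1, 67.4, 65.2 and 68.6 CPM in number 2, and 80.1, 38.2 and 69.8 CPM in number 3. Its log2 fold change of number 2 against number 1 was 0.87 (SE 0.21, adjusted p = 0.010, edgeR). *Col5a1* and *Col5a2*, the chains of type V collagen that nucleate fibrils, were called higher by 0.75 and 1.05 on the log2 scale. The call of *Col5a1* was lost without any 1 of the 6 libraries numbered 1 or 2 and without co-treatment 3 (adjusted p from 0.050 to 0.12, edgeR), and was also missed by limma voom (adjusted p = 0.056). *Col5a3*, the rarest gene of the list per kilobase of exon (0.083 CPM per kb), had 0.46 to 0.55 CPM in number 1 and 0.45 to 1.03 CPM in number 2, and the sets overlapped (log2 fold change 0.48, SE 0.35, adjusted p = 0.30, edgeR). In all, 5 of 6 fibrillar collagen genes were called higher.

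The stretch of 120 bases before the annotated start is shown for *Col3a1* and *Col5a1*, as 2 fibrillar collagen genes with the same direction of change, and for *Fbln1*, the most abundant gene of the list, whose levels ran the other way (values further on). The sequences are from RefSeq on GRCm38.p6, plus strand, and only windows that overlap no annotated exon are shown. *Fbln1* has a further RefSeq start, at 85206008, whose window overlaps an exon and is not shown. GGGCGG lay in the 250 bases before that further start. Capitals mark the motifs searched, where present: TATAA (as in a TATA box), CCAAT (as in a CCAAT box) or GGGCGG (the core of a GC box), each on both strands.
Col3a1, chr1:45311418-45311537: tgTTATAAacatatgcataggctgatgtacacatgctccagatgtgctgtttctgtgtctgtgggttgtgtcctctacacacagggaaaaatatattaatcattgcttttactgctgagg
Col5a1, chr2:27886305-27886424: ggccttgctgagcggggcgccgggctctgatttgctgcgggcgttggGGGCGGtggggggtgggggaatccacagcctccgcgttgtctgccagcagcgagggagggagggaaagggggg
Fbln1, chr15:85205829-85205948: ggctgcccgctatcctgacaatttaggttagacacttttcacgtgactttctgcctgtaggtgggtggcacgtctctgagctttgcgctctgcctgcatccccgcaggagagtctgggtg

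In *Col3a1* the capitals are a TATAA match and an overlapping match on the opposite strand, 117 and 118 bases before the start, and in *Col5a1* they are a GGGCGG starting 73 bases before it. RefSeq windows were present for 31 of the 46 genes, as 37 windows of 250 bases before a start. GGGCGG lay in 23 of the 37 windows (62.2%), in 21 of the 31 genes, against 32.7% of 32817 windows of the same length over all genes. CCAAT lay in 11 windows (29.7%, against 33.8%) and TATAA in 7 (18.9%, against 22.8%). A DR3 repeat, the arrangement that the vitamin D receptor with its partner receptor is known to bind, was searched on both strands as a direct repeat of its known half-sites with 3 bases (NNN) between them. It lay in 0 of the 37 windows and in 0.0396% of all windows. A match is a stretch of letters and says nothing of binding, and enhancers outside these windows were not searched.

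**Figure D1:**
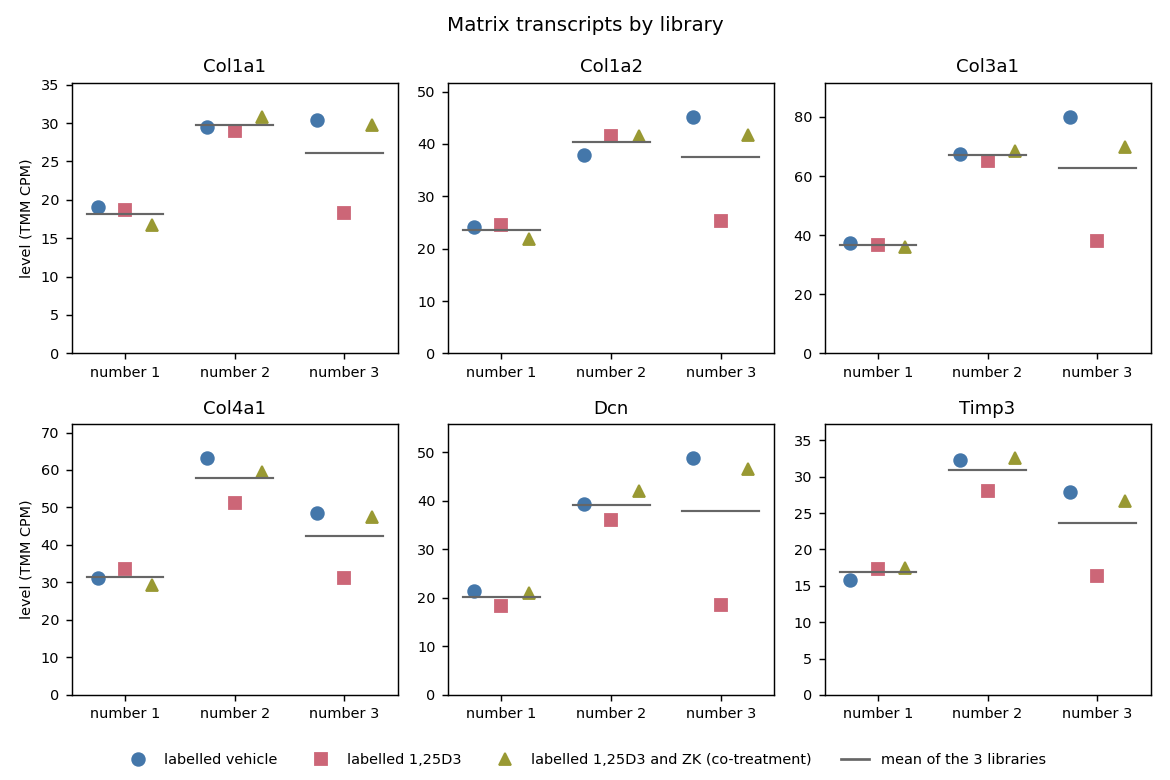
Level (TMM-normalised CPM, linear axis from 0) of *Col1a1*, *Col1a2*, *Col3a1*, *Col4a1*, *Dcn* and *Timp3* in each of the 9 libraries, by number, with markers for the treatment label and a line at the mean of 3 libraries. In each panel the 3 libraries numbered 2 lie above the 3 numbered 1, and in number 3 the library labelled 1,25D3 lies near number 1 while the other libraries are high.

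Among the collagens of fibril surfaces and microfibrils, 3 of 6 were called higher in number 2 against number 1. *Col12a1* and *Col14a1* encode collagens that sit on fibrils, and *Col16a1* encodes a minor member of the same class. *Col16a1* had 1.63 to 1.92 CPM in number 1, 4.32 to 4.94 in number 2, and 4.00, 2.49 and 4.21 CPM in number 3, so that here 1,25D3 3 lay between the sets (log2 fold change 1.37 of number 2 against number 1, SE 0.20, adjusted p = 0.00067, edgeR). *Col12a1* had 1.88 to 2.40 CPM in number 1 and 4.75 to 5.54 in number 2 (log2 fold change 1.23). *Col14a1* had 9.31 to 11.2 CPM and 15.7 to 16.7 CPM (log2 fold change 0.68). The call of *Col12a1* was lost without any 1 of the 6 libraries numbered 1 or 2 (adjusted p from 0.065 to 0.11, edgeR) and in limma voom (adjusted p = 0.058). That of *Col14a1* was lost without any 1 of them but vehicle 1 (adjusted p from 0.058 to 0.091, edgeR). The type VI collagen chains, which form beaded microfibrils around cells, differed less. *Col6a1*, *Col6a2* and *Col6a3* had log2 fold changes of 0.30, 0.28 and 0.56 and were not called, although their libraries of number 2 all lay above those of number 1.

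Of the basement membrane collagens 3 of 4 were called higher. *Col4a1* and *Col4a2* encode the chains of the type IV collagen network found in nearly all basement membranes, and lie head to head on chromosome 8. *Col4a1* (11198423 to 11312826, minus strand) had 31.2, 33.5 and 29.4 CPM in number 1, 63.2, 51.2 and 59.4 CPM in number 2, and 48.5, 31.2 and 47.6 CPM in number 3. *Col4a2* (11312805 to 11449287, plus strand) had 23.0 to 24.5 CPM in number 1, 34.9 to 41.5 in number 2, and 31.5, 25.2 and 31.6 CPM in number 3. The log2 fold changes of number 2 against number 1 were 0.89 (SE 0.16) and 0.69 (SE 0.10), with adjusted p of 0.0021 and 0.00083 (edgeR). The exons of these genes overlap by only 22 bases on opposite strands. *Col18a1*, the source of endostatin, was called higher by 0.65. *Col15a1*, a related collagen of basement membrane zones, had a log2 fold change of 0.57 and an adjusted p of 0.058 (edgeR). Without 1,25D3 3 it was again at 0.57, short of the fold required for a call, with an adjusted p of 0.00021 (edgeR).

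The laminins did not all move one way. A laminin is a trimer of an alpha, a beta and a gamma chain, and the chains used differ between tissue layers. Of 8 genes 6 were called higher and 1 lower in number 2 against number 1. *Lama2*, the alpha chain of muscle and nerve basement membranes, had 0.67 to 1.04 CPM in number 1 and 2.27 to 3.11 CPM in number 2 (log2 fold change 1.79, SE 0.45, adjusted p = 0.012, edgeR). *Lama4*, the alpha chain of vessels, had 4.25 to 4.88 CPM and 8.37 to 10.2 CPM (log2 fold change 0.99). *Lama5* and *Lamb2*, together part of a laminin of mature basement membranes, were called higher by 0.62 and 0.63, and *Lamb1*, the widely used beta chain, by 0.86. The call of *Lama5* was lost without any 1 of the 6 libraries numbered 1 or 2 (adjusted p from 0.076 to 0.12, edgeR) and in limma voom (adjusted p = 0.058). *Lamc1*, the widely used gamma chain, had a log2 fold change of 0.56 (SE 0.13, adjusted p = 0.0079, edgeR), just under the fold required for a call.

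The alpha and beta chains of laminin-332, the laminin by which epithelial cells attach to the basement membrane, went apart. *Lama3*, its alpha chain (chromosome 18, 12333819 to 12583013, plus strand), had 3.38, 3.60 and 3.97 CPM in number 1 and 11.2, 11.9 and 10.7 CPM in number 2. In number 3 it had 2.90, 3.47 and 2.42 CPM, so that vehicle 3 and co-treatment 3 were not high for it, unlike for most of the list. Its log2 fold change of number 2 against number 1 was 1.62 (SE 0.13), with the smallest adjusted p of the list (2.5e-05, edgeR). *Lamb3*, its beta chain, went the other way, with 56.4, 54.1 and 54.5 CPM in number 1, 36.3, 41.7 and 31.5 CPM in number 2, and 61.9, 56.4 and 58.3 CPM in number 3 (log2 fold change -0.59, SE 0.098, adjusted p = 0.0015, edgeR). That value is at the edge of the fold required, and the call was lost without vehicle 1 (-0.57) and without co-treatment 2 (-0.49). Per kilobase of exon *Lamb3* was the most abundant laminin gene, at 7.58 CPM per kb on average over the 9 libraries.

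**Figure D2:**
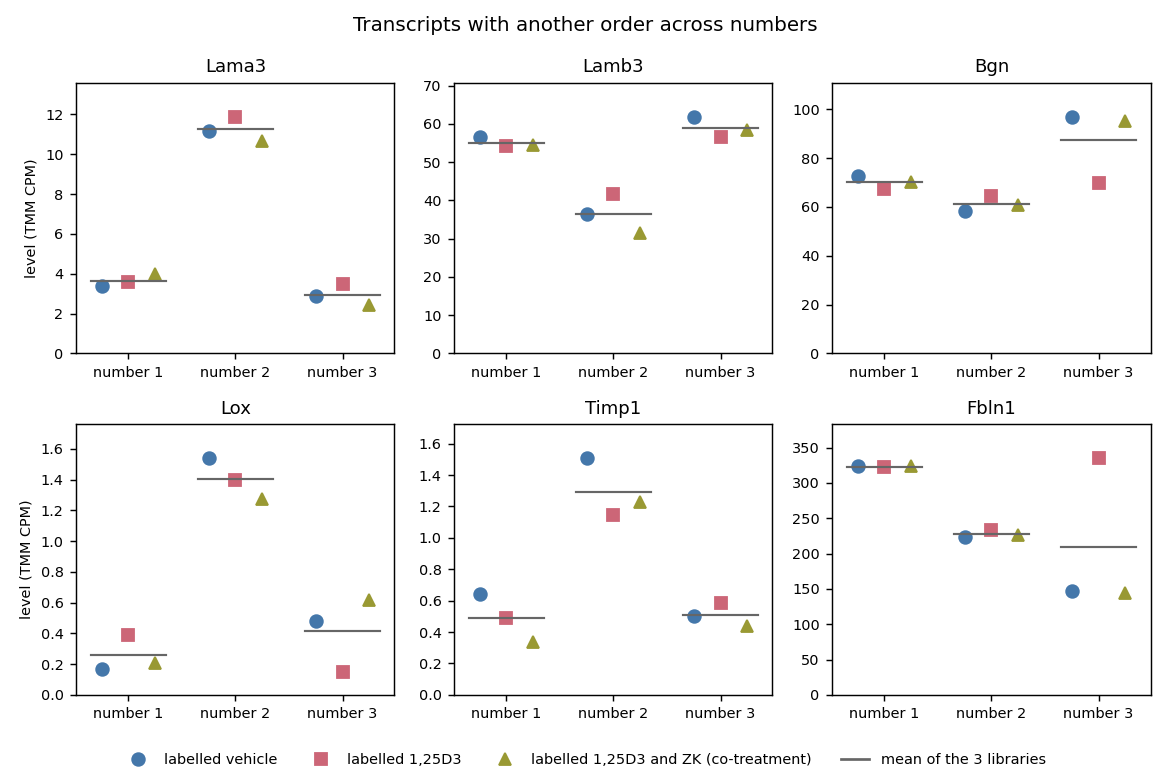
Level (TMM-normalised CPM, linear axis from 0) of *Lama3*, *Lamb3*, *Bgn*, *Lox*, *Timp1* and *Fbln1* in each library, by number, with markers for the treatment label and a line at the mean of 3 libraries. *Lama3*, *Lox* and *Timp1* are highest in number 2, *Lamb3* and *Bgn* are lowest there, and *Fbln1* is lowest in vehicle 3 and co-treatment 3.

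The linkers of the basement membrane were not called. *Nid1*, *Nid2* (nidogens) and *Hspg2* (perlecan) had log2 fold changes of 0.47, 0.21 and 0.35 in number 2 against number 1. The sets did not overlap for *Nid1* and *Hspg2*, and overlapped for *Nid2*. *Nid2* shares 437 exon bases with *Rtraf* on the opposite strand, a gene with 25866 reads. Whether reads were counted by strand is not given in the sources used here, and the counts of *Nid2* are uncertain.

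The elastic fibre genes had some of the highest fold changes, and 3 of 4 in the group were called higher. *Eln*, elastin itself, had 0.32 to 0.99 CPM in number 1, 2.03 to 2.37 in number 2, and 1.84, 0.93 and 1.59 CPM in number 3 (log2 fold change 1.68, SE 0.35, adjusted p = 0.0047, edgeR). *Fbln2*, a fibulin of elastic fibres and basement membranes, had 0.60 to 1.01 CPM in number 1 and 2.79 to 4.04 CPM in number 2 (log2 fold change 1.99). *Fbn1*, fibrillin of the microfibril scaffold, was called higher by 0.75, a call lost without 1,25D3 1, co-treatment 1, vehicle 2 or co-treatment 2 (adjusted p from 0.055 to 0.078, edgeR).

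*Fbln1*, a fibulin that binds fibronectin, laminins and nidogen, was the most abundant gene of the list at 58.0 CPM per kb, ahead of *Sparc* at 16.6 CPM per kb. It had 324, 322 and 324 CPM in number 1, 223, 233 and 226 CPM in number 2, and 148, 335 and 144 CPM in number 3. The libraries numbered 2 thus lay below those numbered 1, and vehicle 3 and co-treatment 3 lay lower still, while 1,25D3 3 was the highest of all 9. The log2 fold change of number 2 against number 1 was -0.51 (SE 0.27, adjusted p = 0.17, edgeR) and was not called. Without 1,25D3 3 it was again -0.51 (SE 0.040, adjusted p = 1.1e-06, edgeR), short of the fold required for a call. In that fit number 3 was called lower than number 1 by a log2 fold change of -1.15 (SE 0.047, adjusted p = 3.3e-08, edgeR).

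Of 7 glycoprotein and proteoglycan genes 3 were called higher in number 2. *Dcn* (decorin) and *Lum* (lumican), small proteoglycans that set fibril spacing, and *Tnc* (tenascin C), an anti-adhesive glycoprotein, had log2 fold changes of 0.96, 1.38 and 0.67. *Dcn* had 21.4, 18.3 and 21.0 CPM in number 1, 39.4, 36.1 and 42.1 CPM in number 2, and 48.8, 18.5 and 46.6 CPM in number 3. The call of *Dcn* was lost without any 1 of the libraries numbered 1 or 2 except 1,25D3 2 (adjusted p from 0.066 to 0.091, edgeR), and that of *Tnc* without any 1 of these 6 (adjusted p from 0.060 to 0.083, edgeR). *Fn1* (fibronectin) had 34.5 to 37.5 CPM and 47.3 to 51.9 CPM in numbers 1 and 2, did not overlap, and missed both thresholds (log2 fold change 0.47, under the 0.58 required, SE 0.17, adjusted p = 0.051, edgeR). Its adjusted p was 1.4e-05 (edgeR) without 1,25D3 3, with a log2 fold change again of 0.47. *Sparc*, a collagen-binding protein, and *Postn* (periostin) had log2 fold changes of 0.31 and 0.28. *Bgn* (biglycan), a close relative of decorin, did not share its pattern. It had 72.6, 67.4 and 70.1 CPM in number 1, 58.4, 64.3 and 60.8 CPM in number 2, and 96.9, 70.0 and 95.0 CPM in number 3.

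Among the enzymes and cofactors that mature collagen, *Lox*, the lysyl oxidase that cross-links collagen and elastin, had the largest fold change of the 46 genes. It had 0.17, 0.39 and 0.21 CPM in number 1, 1.54, 1.40 and 1.27 CPM in number 2, and 0.48, 0.15 and 0.62 CPM in number 3. These levels rest on 229 reads in the whole series. The log2 fold change of number 2 against number 1 was 2.38 (SE 0.41, adjusted p = 0.0017, edgeR). Its relative *Loxl1*, which acts on elastin, had 2.34 to 2.60 CPM in number 1 and 2.44 to 2.66 CPM in number 2, a log2 fold change of 0.04 (SE 0.13). *Pcolce*, which enhances the removal of the procollagen C-propeptide, had a log2 fold change of 0.27 (SE 0.13, adjusted p = 0.13, edgeR).

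The proteases and their inhibitors were split. *Timp1*, a secreted inhibitor induced in many tissue responses, had 0.64, 0.49 and 0.33 CPM in number 1, 1.51, 1.15 and 1.23 CPM in number 2, and 0.50, 0.59 and 0.44 CPM in number 3. Its log2 fold change of number 2 against number 1 was 1.40 (SE 0.26, adjusted p = 0.0028, edgeR), and like *Lama3* it was not high in any library numbered 3. *Timp3*, the inhibitor that stays bound to the matrix, had 15.8 to 17.5 CPM in number 1, 28.1 to 32.6 in number 2, and 27.9, 16.4 and 26.6 CPM in number 3 (log2 fold change 0.88). *Timp3* shares 1733 exon bases with *Syn3* on the opposite strand, which had 90 reads in all. The gelatinase *Mmp2* had a log2 fold change of 0.03, and the membrane-bound *Mmp14*, which activates it, had -0.23 (SE 0.080, adjusted p = 0.044, edgeR) and did not reach the fold for a call.

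**Figure D3:**
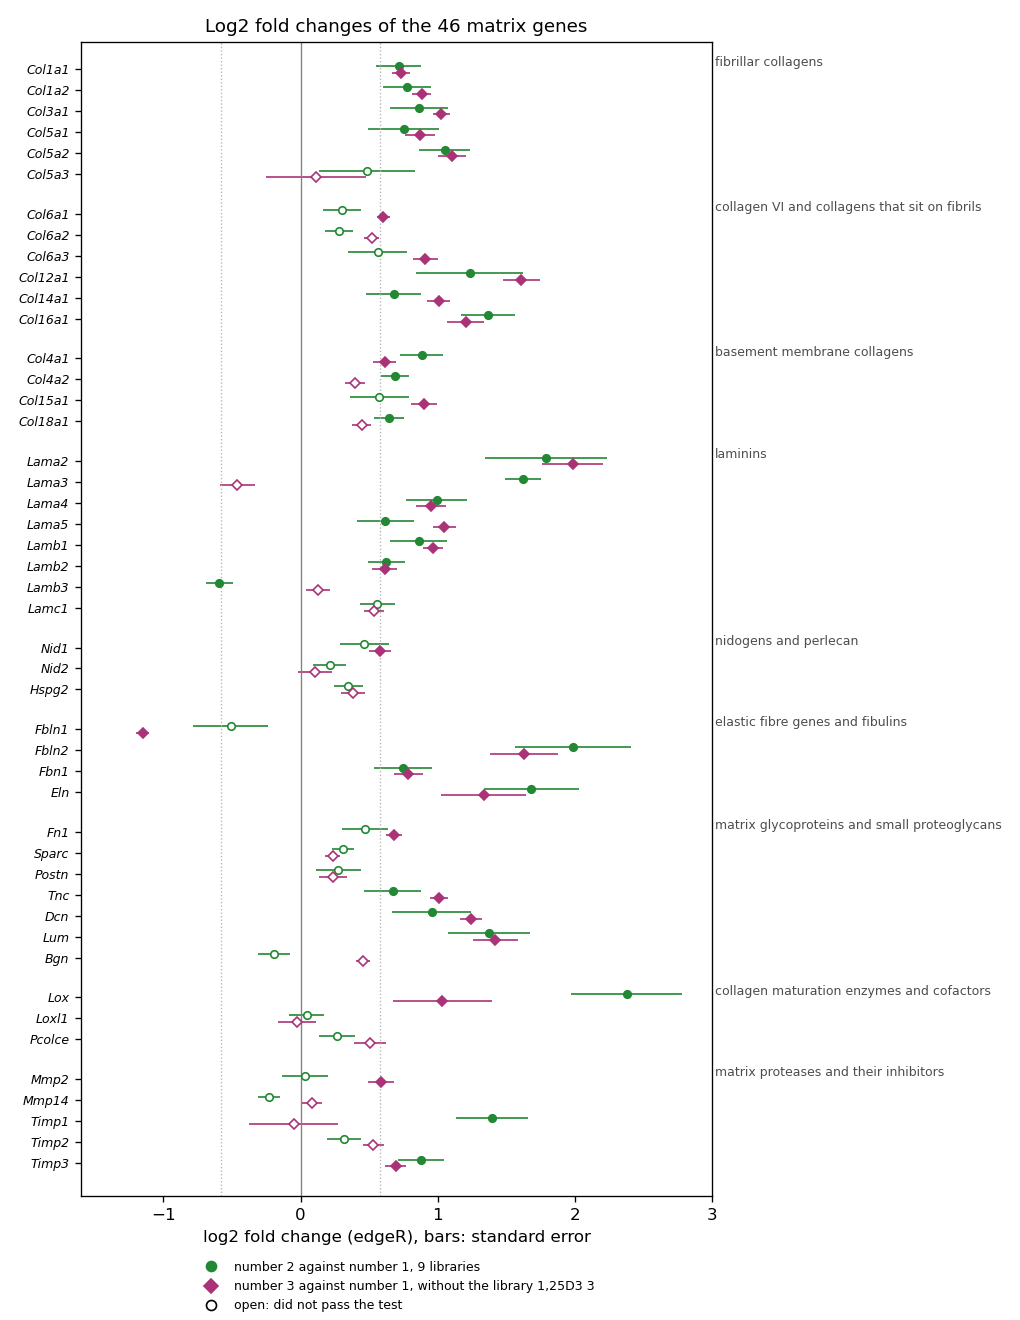
Log2 fold change (edgeR, horizontal axis, bars are standard errors) of each of the 46 genes, grouped by role. Circles show number 2 against number 1 over 9 libraries and diamonds show number 3 against number 1 without the library 1,25D3 3; filled symbols passed the test, and dotted lines mark 0.58 in either direction. Most symbols lie to the right of 0, with *Lamb3* and *Fbln1* called lower in 1 comparison each.

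The libraries numbered 3 did not behave as 1 set. With all 9 libraries no gene of the 15002 was called between number 3 and number 1 (edgeR, smallest adjusted p 0.14), although 26.3% of genes and 36 of the 46 matrix genes had an unadjusted p under 0.05. DESeq2 on the same libraries called 12 of the 46 higher, against 2.49% of all genes (2.65% called in either direction). The median log2 fold change of the matrix genes was 0.48, against 0.01 over all genes. Without 1,25D3 3, 28 of the 46 were called higher and 1 lower (*Fbln1*), with 11.4% and 7.71% of all genes tested called in these directions (19.2% in all) and a median of 0.65. In that fit number 3 rests on vehicle 3 and co-treatment 3. The library left out was chosen for its levels in these same genes. The calls and p-values without it therefore follow in part from that choice and are not an independent test. For 39 of the 46 genes both of these libraries lay above all 3 numbered 1, against 36.1% of all genes, and for 2 genes both lay below, against 35.2%.

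Without 1,25D3 3 the log2 fold change of number 3 against number 1 was 1.03 for *Col3a1* (SE 0.061), 0.73 for *Col1a1* (SE 0.065) and 0.88 for *Col1a2* (SE 0.069), with adjusted p of 4.8e-07, 5.9e-06 and 2.5e-06 (edgeR). For *Dcn* it was 1.24 (SE 0.080) and for *Lama2* 1.98 (SE 0.22). By role 5 of 6 fibrillar collagens, 5 of 6 collagens of fibril surfaces and microfibrils, 2 of 4 basement membrane collagens and 5 of 8 laminins were called higher. *Col6a1* and *Col6a3*, not called in number 2, were called here at 0.60 and 0.91, as was *Mmp2* at 0.59. *Col4a2* and *Col18a1*, called in number 2, had 0.40 and 0.45 here. Both comparisons share the libraries numbered 1, so their values stand side by side and are not independent of each other.

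Numbers 3 and 2 were then compared directly. With all 9 libraries 4 of the 46 genes were called, against 11.3% of all genes (4.53% higher and 6.81% lower). *Lamb3* was called higher in number 3 and *Lama3*, *Lox* and *Timp1* lower, with a log2 fold change of -1.96 for *Lama3*, -1.62 for *Lox*, -1.36 for *Timp1* and 0.69 for *Lamb3*. Without 1,25D3 3 these were called again, at -2.08, -1.34, -1.44 and 0.72. Called in addition were *Bgn*, higher by 0.65 (SE 0.053, adjusted p = 2.8e-06, edgeR), and *Fbln1*, lower by a log2 fold change of -0.64 (SE 0.046, adjusted p = 9.7e-07, edgeR), which made 6 genes, against 15.6% of all genes (6.51% higher and 9.09% lower). The fibrillar collagens were not called in either fit. Without 1,25D3 3, *Col1a1* had a log2 fold change of 0.01 (SE 0.063) between numbers 3 and 2, and *Col3a1* had 0.16 (SE 0.060). The median of the 46 genes was -0.13 with 1,25D3 3 and 0.05 without it.

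By treatment label no matrix gene was called in any comparison, and no gene of the 15002 was (edgeR). An unadjusted p under 0.05 was reached by 135 genes (0.9%) for 1,25D3 against vehicle, 24 (0.16%) for co-treatment against vehicle, and 147 (0.98%) for co-treatment against 1,25D3, and by none of the 46 matrix genes. DESeq2 and limma called none of the 46 either. The median log2 fold changes of the 46 genes were -0.28, -0.04 and 0.24 in these comparisons, against -0.0064, -0.0013 and 0.0090 over all genes. Without 1,25D3 3 the first and last became -0.17 and 0.15. The number of genes whose 3 libraries did not overlap was 1 for 1,25D3 against vehicle (*Nid2*, lower, 8.13 ± 0.83 against 9.80 ± 0.64 CPM, SD, n = 3) and 0 in the other comparisons, against 3.96%, 1.79% and 4.39% of all genes.

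For the most abundant fibrillar collagens the treatment differences were bounded only loosely. *Col1a1* was 26.3 ± 6.35 CPM under the vehicle label, 22.0 ± 6.07 under 1,25D3 and 25.8 ± 7.86 under co-treatment (SD, n = 3). The log2 fold change of 1,25D3 against vehicle was -0.26 with a 95% interval from -0.93 to 0.41. For *Col3a1* it was -0.40 (from -1.22 to 0.42), and for *Col1a2* it was -0.23 (from -0.98 to 0.52). For co-treatment against 1,25D3 the log2 fold change of *Col3a1* was 0.32 (from -0.51 to 1.14), and without 1,25D3 3 it was 0.19 (from -0.78 to 1.17). Values near 0 and differences of up to about 1 on the log2 scale are both inside these intervals. Libraries labelled vehicle and co-treatment moved together by number, and with the number as a block in these 6 libraries the intervals were narrower: for co-treatment against vehicle, *Col1a1* had -0.03 (from -0.14 to 0.08) and *Col3a1* -0.08 (from -0.17 to 0.00). In that fit none of the 46 genes was called (smallest adjusted p 0.28, edgeR). An unadjusted p under 0.05 (edgeR) was reached there by 3 of the 46, *Lamb3*, *Nid2* and *Fbn1*, and the share over all genes in that fit is not given.

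Other genes of the same pathways were counted on lists outside the 46, and no list was tested as a set. Over all genes tested 12.2% were called higher and 8.25% lower in number 2 against number 1. On lists this short, counts such as 4 of 20 or 3 of 13 are not far from these shares. Of 32 other matrix proteins tested, 13 were called higher and 1 lower in number 2 against number 1. The called-lower gene was also the most abundant of that list: *Tgfbi*, a secreted integrin-binding protein, had 388 to 404 CPM in number 1, 126 to 175 CPM in number 2, and 239, 400 and 241 CPM in number 3 (log2 fold change -1.47, SE 0.21, adjusted p = 0.00061, edgeR). The next, *Agrn* (agrin), a heparan sulphate proteoglycan, had a log2 fold change of -0.17. Of 20 genes for collagen synthesis 4 were called higher and 0 lower. *P4hb*, a subunit of prolyl 4-hydroxylase and a general folding enzyme, had 5652 to 5787 CPM in number 1 and 4195 to 4309 CPM in number 2 (log2 fold change -0.43, adjusted p = 0.074, edgeR), and *Ppib*, a prolyl isomerase, had 371 to 373 CPM and 259 to 285 CPM (-0.44, adjusted p = 0.033, edgeR). Of 13 other matrix proteases 3 were called higher and 0 lower; the most abundant, *Mmp7*, the matrilysin of Paneth cells, had a log2 fold change of 0.15.

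Of 16 genes of TGF-beta signalling, the pathway best known for inducing collagen, 6 were called higher and 0 lower. The shares over all genes tested were 12.2% and 8.25%. *Skil*, a feedback inhibitor that TGF-beta induces, had 26.5 to 27.6 CPM in number 1, 97.3 to 100.3 CPM in number 2, and 45.7, 23.5 and 45.0 CPM in number 3 (log2 fold change 1.86, SE 0.20, adjusted p = 0.00015, edgeR). *Smad4*, the shared signal transducer and the other of the most abundant pair on that list, had a log2 fold change of -0.29 (adjusted p = 0.027, edgeR), below the fold for a call. No gene of these 4 lists was called by treatment label.

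Markers of some cell types moved with the matrix genes and those of others did not. A whole duodenum holds epithelium, stroma and muscle, and in bulk RNA more cells of a type and more RNA per cell cannot be told apart. The 12 fibroblast markers, none of them among the 46 genes, summed to 100 to 104 CPM in number 1, 132 to 142 in number 2, and 149, 104 and 145 CPM in number 3; 3 of 12 were called higher in number 2 against number 1, and 5 of 12 in number 3 against number 1 without 1,25D3 3. The 12 endothelial markers summed to 60.4 to 61.1 CPM, 75.5 to 87.2 CPM, and 97.3, 60.5 and 92.8 CPM, with 3 and 6 of 12 called higher. Over all genes tested 12.2% and 11.4% were called higher in these comparisons. The fibroblast and endothelial sums were higher in the libraries numbered 2, vehicle 3 and co-treatment 3 than in any library numbered 1. The same held for 36 of the 46 matrix genes, and the joint share over all genes was not computed. Taken singly, all libraries numbered 2 lay above all those numbered 1 in 31.8% of all genes. Vehicle 3 and co-treatment 3 both did so in 36.1%. The 10 smooth muscle markers ran the other way, at 1617 to 1718 CPM in number 1, 1313 to 1356 in number 2, and 1209, 1733 and 1178 CPM in number 3, with 3 of 10 called lower in number 2. The 10 enterocyte markers also did, at 48002 to 48976 CPM, 30991 to 35949 CPM, and 31766, 49590 and 32176 CPM, with 4 of 10 called lower. Over all genes tested 8.25% were called lower in number 2 against number 1. Enterocyte markers were high in every library, as the duodenal label implies. The 6 crypt markers had another order, at 372 to 378 CPM, 258 to 288 CPM, and 604, 365 and 584 CPM. The 9 leukocyte markers overlapped between numbers 1 and 2 (235 to 243 and 207 to 258 CPM). Sums of the 6 pericyte markers (173 to 182 and 201 to 215 CPM) and the 8 markers of enteric glia and neurons (9.10 to 10.7 and 12.7 to 14.3 CPM) were higher in number 2.

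Markers of cells that lie outside the gut wall or on its outer surface differed too. The 16 pancreatic acinar markers summed to 106 to 118 CPM in number 1 and 115 CPM in 1,25D3 3, but to 43967, 8752 and 42220 CPM in vehicle 2, 1,25D3 2 and co-treatment 2, with 3932 CPM in vehicle 3 and 3868 CPM in co-treatment 3. In the same 5 libraries, those numbered 2 with vehicle 3 and co-treatment 3, the fibrillar collagens summed to 153, 151, 157, 174 and 158 CPM, against 84.0 to 90.5 CPM in the other 4, so high acinar sums and high collagen sums fell in the same libraries. The part of acinar tissue in the result was not tested. The 6 adipocyte markers summed to 71.6 to 72.9 CPM in number 1, 152 to 162 in number 2, and 102, 77.2 and 97.0 CPM in number 3. Of these markers 3 had enough reads to be tested. All 3 were called higher in number 2 against number 1, at log2 fold changes from 1.04 to 9.74, against 12.2% of all genes. *Adipoq*, the defining adipocyte marker, was at 0 in number 1, 2.82 to 3.91 CPM in number 2 and at most 0.025 CPM in number 3. The 5 mesothelial markers summed to 8.35 to 9.73 CPM in number 1, 13.2 to 14.1 in number 2, and 4.78, 7.91 and 4.82 CPM in number 3. How much of the difference in matrix genes goes with the share of each cell type was not tested.

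**Figure D4:**
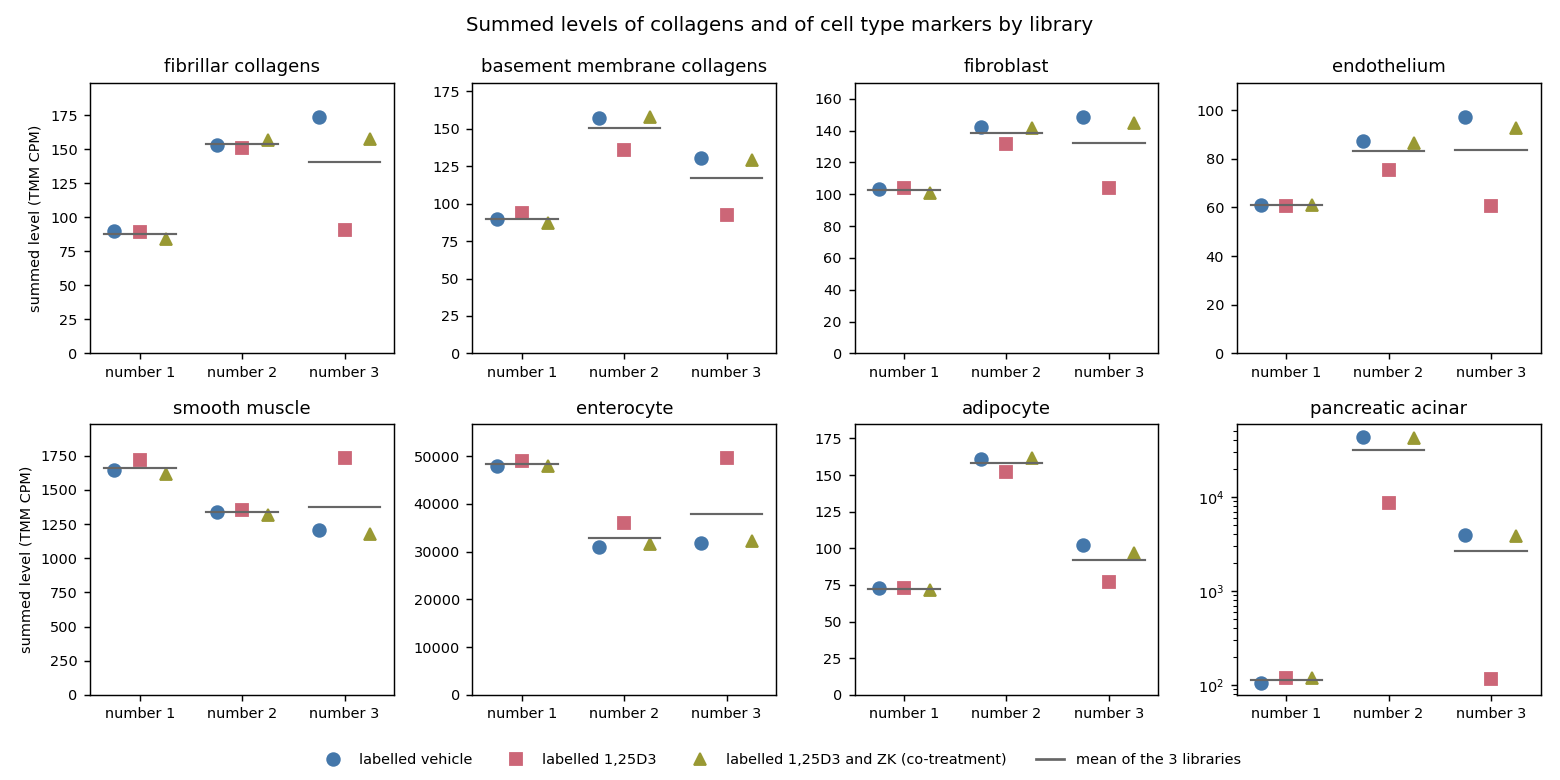
Summed level (TMM-normalised CPM) of fibrillar collagens, basement membrane collagens and 6 lists of cell type markers in each library, by number; axes are linear from 0 except for pancreatic acinar markers, which are on a log axis. Both collagen sums and the fibroblast, endothelial and acinar sums are higher in number 2, vehicle 3 and co-treatment 3 than in number 1, and the smooth muscle and enterocyte sums are lower there.

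Summed over all 46 genes, matrix transcripts took 1037 to 1050 CPM in number 1, 1193 to 1226 in number 2, and 1263, 1068 and 1216 CPM in number 3. *Fbln1* alone, running against most of the list, held 322 to 324 of these CPM in number 1. By role the sums of fibrillar collagens were 84.0 to 89.6 CPM in number 1 and 151 to 157 in number 2, those of laminins 101 to 104 and 116 to 123 CPM, and those of elastic fibre genes and fibulins, where *Fbln1* dominates, 330 to 333 and 241 to 248 CPM.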

How the data were processed

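Poly(A) RNA of duodenum was sequenced from a stranded library kit. Upstream, the authors converted base calls with bcl2fastq (version 2.17.1.14), discarded adapter dimers, mapped to mm10 with Tophat and Bowtie2, and used HTSeq on the uniquely mapped reads. Strand setting and annotation release are not given in the sources used here. What they deposited is a table of raw counts, 48709 Ensembl genes by 9 columns, each column matched to its sample by the sample description. Symbols (48349 genes), positions and exon lengths came from the GENCODE M21 annotation of GRCm38, the same assembly.

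TMM normalisation and the quasi-likelihood test of edgeR 4.0.16 (R 4.3.3) were run on the 15002 genes whose reads over all libraries exceeded 100, with Benjamini-Hochberg adjustment over all of them. Thresholds were 0.05 for the adjusted p and 0.58 for the absolute log2 fold change. One fit had 1 mean per treatment label and the other 1 mean per number in the title, each over all 9 libraries, so that groups share 1 estimate of the spread. P-values between numbers take the 3 libraries of a number as independent replicates, which the labels cannot show. That the numbers separate the libraries was known from earlier work on the same data. Scripts were tested on simulated data. Alternatives were DESeq2 1.42.0, limma 3.58.1 (voom), other filters and scalings, a replicate block and leaving out each library. The study describes separate mice within each condition, though the labels tie no library to a mouse.

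To see whether the numbers pair libraries, deviations from the treatment means were correlated (log2 CPM, pseudocount 0.5). Between co-treatment and vehicle the correlations were 0.93, 0.95 and 0.89 for numbers 1, 2 and 3, and the numbers were therefore used as pairs there, a reading taken from the expression values. Between 1,25D3 and vehicle they were 0.78, 0.82 and -0.03, and no pairing was assumed.

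The 46 genes, their roles and the other lists were chosen with earlier results of these data known. Named genes are the 46, the 2 most abundant genes of each further list, *Cyp24a1* as a check of the labels, and *Adipoq*, named after its values were seen. One gene of the further lists is not reported here. Of the 46, 12 share exon bases with a gene on the opposite strand and 2 with one on the same strand. Columns of the table that were not used number 0.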

Additional observations from a re-analysis of the deposited data

How the results depend on the processing

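Shares of all genes called stand in brackets. Between numbers 2 and 1, the 27 matrix genes called (20.4%) became 24 to 32 (12.4% to 38.3%) under the other tools, filters, scalings and designs, and 19 to 27 (16.2% to 23.1%) when 1 library was left out at a time. Between numbers 3 and 1 the count of 0 (0%) rested on the library 1,25D3 3: leaving out 1 library at a time gave 0 to 29 (0% to 19.2%), with 29 only without that library. DESeq2 called 12 (2.65%), edgeR with no read filter 12 (1.7%), DESeq2 without 1,25D3 3 called 26 (17.8%) and edgeR without 1,25D3 2 and 1,25D3 3 called 27 (20.4%); the last of these was, like DESeq2 without 1,25D3 3, added after seeing the data. Between numbers 3 and 2 the count of 4 (11.3%) became 7 with no minimum fold (23.2%), 7 without 1,25D3 2 and 1,25D3 3 (18%), and 4 to 6 (8.58% to 15.6%) when 1 library was left out. Between numbers 2 and 1 the direction was followed for every matrix gene. In the other number comparisons it was followed only for genes called with or without 1,25D3 3. By treatment label it was followed only for *Col1a1*, *Col1a2* and *Col3a1*. Among the genes followed, the direction changed in those named next, none of them called with all 9 libraries. *Mmp2* between numbers 2 and 1 ran from -0.043 to 0.12 on leaving out 1 library and was -0.0061 without 1,25D3 2 and 1,25D3 3. For co-treatment against vehicle, *Col1a1* ran from -0.22 to 0.20, *Col1a2* from -0.25 to 0.22 and *Col3a1* from -0.34 to 0.17. The median log2 fold change of all matrix genes also changed sign there, from -0.22 without vehicle 1 to 0.14 without co-treatment 1. *Fbln1* between numbers 3 and 2 ran from -0.64 without 1,25D3 3, where it was called lower, to 0.084 without co-treatment 3. The latter fit leaves vehicle 3 (148 CPM) and 1,25D3 3 (335 CPM) in number 3. Why 1,25D3 3 differs from the other libraries numbered 3 was not tested. With the number as a replicate block 0 matrix genes were called in each treatment comparison, and pairing the 6 libraries of co-treatment and vehicle (added after seeing the data) also gave 0; the block changed no call. For number comparisons, the treatment label as a term gave 27, 0 and 4 calls. Genes with few reads, such as *Lox* and *Timp1*, limit what these depths show.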
